A study of Rattus norvegicus with 22 samples.

Results

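Genes of the growth hormone and STAT5 axis and of its liver targets were followed in male and female rat offspring of mothers fed an obesogenic diet. The set holds 7 genes of 1434 rows in the 2 deposited tables, found by their gene symbols: Socs2, Stat5a, Stat5b, Cyp2c13, Cyp2a2 and Hsd3b5 among the 1365 rows of the male table, and Obp3 among the 69 rows of the female table. No gene of the set is in both tables, so each was compared within 1 sex. Both tables already hold only rows that the study listed for a difference between the diets, and the 7 genes were selected on those differences in mean level between MO and control animals. Their differences between the diets are therefore described and not tested.

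The animals were Wistar rats studied at postnatal day 110, and the tissue was whole liver. The groups were 5 male offspring of mothers with maternal obesity (MO, the labels' name for the obesogenic diet group), 6 male offspring of control-diet mothers, 5 MO female offspring and 6 control female offspring. The diet was the mother's, and no gene was altered in any group. Each animal gave 1 library, the labels name no litters, and any spread between animals may therefore include a shared litter.

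Growth hormone binds its receptor on hepatocytes, which activates the kinase JAK2 and through it the transcription factors STAT5A and STAT5B. STAT5 proteins enter the nucleus, bind DNA as dimers and turn on target genes, among them Socs2, whose product binds the activated receptor and dampens the signal. In rats, males release growth hormone in pulses and females more evenly, and this pattern sets male-predominant liver genes such as Cyp2c13, Cyp2a2, Hsd3b5 and the alpha-2u globulin family, to which Obp3 belongs.

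Promoters are shown for the 4 of 7 genes that had one in the RefSeq table (assembly GRCr8), because the pair of signal carriers and the pair of targets have unlike starts. Each runs 5′ to 3′ over 300 bases, from 250 before to 50 after the annotated start of the gene. Capitals mark each CG dinucleotide in the first 2 sequences and the letters TATAAA in the other 2. They lie at chr10:86285609-86285908 on the plus strand (Stat5a), chr10:86275903-86276202 on the minus strand (Stat5b), chr1:248787139-248787438 on the minus strand (Cyp2c13) and chr5:79640626-79640925 on the minus strand (Obp3).
Stat5a: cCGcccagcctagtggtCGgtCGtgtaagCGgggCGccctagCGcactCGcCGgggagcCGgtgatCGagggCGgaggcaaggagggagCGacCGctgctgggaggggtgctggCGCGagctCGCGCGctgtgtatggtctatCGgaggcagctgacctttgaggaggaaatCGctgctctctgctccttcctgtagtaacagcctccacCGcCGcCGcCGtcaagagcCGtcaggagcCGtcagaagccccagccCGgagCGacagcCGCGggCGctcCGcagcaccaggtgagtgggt
Stat5b: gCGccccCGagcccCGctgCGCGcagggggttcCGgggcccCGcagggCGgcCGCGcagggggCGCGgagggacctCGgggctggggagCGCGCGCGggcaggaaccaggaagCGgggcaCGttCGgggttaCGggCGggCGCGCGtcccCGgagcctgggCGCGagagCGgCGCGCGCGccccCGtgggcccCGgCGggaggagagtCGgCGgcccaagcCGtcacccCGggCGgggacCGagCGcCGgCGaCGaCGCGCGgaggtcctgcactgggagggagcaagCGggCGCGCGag
Cyp2c13: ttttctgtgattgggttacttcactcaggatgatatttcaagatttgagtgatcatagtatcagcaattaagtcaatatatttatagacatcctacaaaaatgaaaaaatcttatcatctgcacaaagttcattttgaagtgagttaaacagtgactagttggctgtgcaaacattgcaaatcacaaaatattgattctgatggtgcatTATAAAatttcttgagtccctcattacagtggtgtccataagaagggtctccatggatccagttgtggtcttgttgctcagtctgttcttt
Obp3: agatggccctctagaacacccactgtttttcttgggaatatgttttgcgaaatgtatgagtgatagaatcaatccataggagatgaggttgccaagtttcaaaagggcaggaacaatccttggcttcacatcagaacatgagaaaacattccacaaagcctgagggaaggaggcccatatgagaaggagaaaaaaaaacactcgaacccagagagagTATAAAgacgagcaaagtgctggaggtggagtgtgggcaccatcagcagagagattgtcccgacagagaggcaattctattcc
The Stat5a and Stat5b windows were rich in G and C, at 69.0% and 82.7%, against a median of 51.7% over the 33469 promoters in the table. They held 32 and 53 CG dinucleotides, more than 91.6% and 99.6% of all promoters. The Cyp2c13 window had 34.7% GC and 0 CG, and the Obp3 window had 45.3% GC and 4 CG. The letters TATAAA began 41 bases before the start of Cyp2c13 and 33 bases before that of Obp3, and were found on the gene's own strand in 8.8% of all promoters. The letters TTCNNNGAA, the core to which STAT5 dimers bind, read the same on both strands and were in 0 of the 4 windows, against 8.87% of all promoters. That says only that these letters are not within these 300 bases. Stat5a and Stat5b are neighbours on chromosome 10 and point away from each other.

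Levels are given in RPM, a count of reads divided by the total of its library and scaled up, which were not scaled to transcript length, so they are compared between animals and never between genes. Differences are MO minus control means of log2(RPM + 1), a scale that understates the change of low genes, with the standard error (SE) of a limma fit over all rows of the table. Depth was 10530000 to 11590000 reads in MO males, 7890000 to 11170000 in control males, 10470000 to 11710000 in MO females and 9170000 to 11770000 in control females. Among the male rows 1317 were lower and 48 higher in MO animals, with a median difference of -0.58, and rows had been listed only for differences of at least 0.48 in size. For the 6 male genes and the other pathway genes of the male table, the difference is therefore also given after centring. Centring subtracts the library's own median log2 value over the listed rows. Those rows were selected for a difference and most were lower, so centring takes most of the table's shift away by construction. A gene near the table's median difference then lands near 0, whatever the source of the shift. Centred values thus place a gene among the listed rows and do not measure its change in level. The library medians ran between 3.72 and 4.06 in MO males and between 4.29 and 4.92 in control males. The listed rows together took 6.58% to 8.69% of the reads of MO males and 9.69% to 15.3% of the reads of control males. A pair of non-coding RNAs separated controls 1 and 5 from the other controls. The row titled Rmrp (Rpph1 by its current RefSeq name) was at 1.71 to 3.11 RPM in MO males and at 1.20 and 1.52 RPM in these controls, against 36.9 to 51.2 RPM in the other 4. The signal recognition particle RNA (listed as LOC102723236) was at 6.71 to 27.6 RPM in MO males, at 15.9 and 6.13 RPM in these controls and at 401 to 642 RPM in the other 4. The part of library make-up in the differences below was not tested. Of the male rows 100.0% passed the limma threshold (adjusted p under 0.05, Benjamini-Hochberg). These rows had been selected for a difference, so nothing is read from the 6 male genes passing it too.

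Socs2, the feedback inhibitor, was the only one of the 6 male genes with a higher level in MO livers. Its level in MO males 1 to 5 was 29.8, 19.3, 11.5, 20.2 and 54.9 RPM, against a lowest of 1.07, a median of 4.91 and a highest of 17.8 RPM in control males. In reads that was 130 to 636 in MO males and 9 to 178 in control males. The groups overlapped by 1 animal on each side: control 1 lay above MO 3, and 4 of 5 MO males were above every control, while 5 of 6 controls were below every MO male. Every MO male lay above every control in 10 of 1365 male rows (0.733%), and Socs2 was not among them. Only 48 male rows were higher in MO animals at all, so the share among higher rows is much larger. Socs2 averaged 27.1 ± 16.8 RPM in MO males (SD, n = 5) and 6.18 ± 6.29 RPM in control males (SD, n = 6), a log2 difference of 2.23 ± 0.44 (SE), or 4.69-fold on the log2(RPM + 1) scale. By size this ranked 2 among the 48 male rows that were higher. The spread was wide in both groups, with a coefficient of variation of 62.0% in MO males and 102% in control males.

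The direction of Socs2 was opposite to the shift of the table, and centring moved its difference to 2.81 ± 0.52 (SE). Leaving out 1 animal at a time gave differences between 1.93 and 2.60, the highest without control 1. Against controls 1 and 5 alone, the ones that resembled MO males in both non-coding RNAs, the difference was 1.99. These 2 controls were at opposite ends of the control range for Socs2, with 17.8 RPM in control 1 and 1.07 RPM in control 5.

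**Figure D1:**
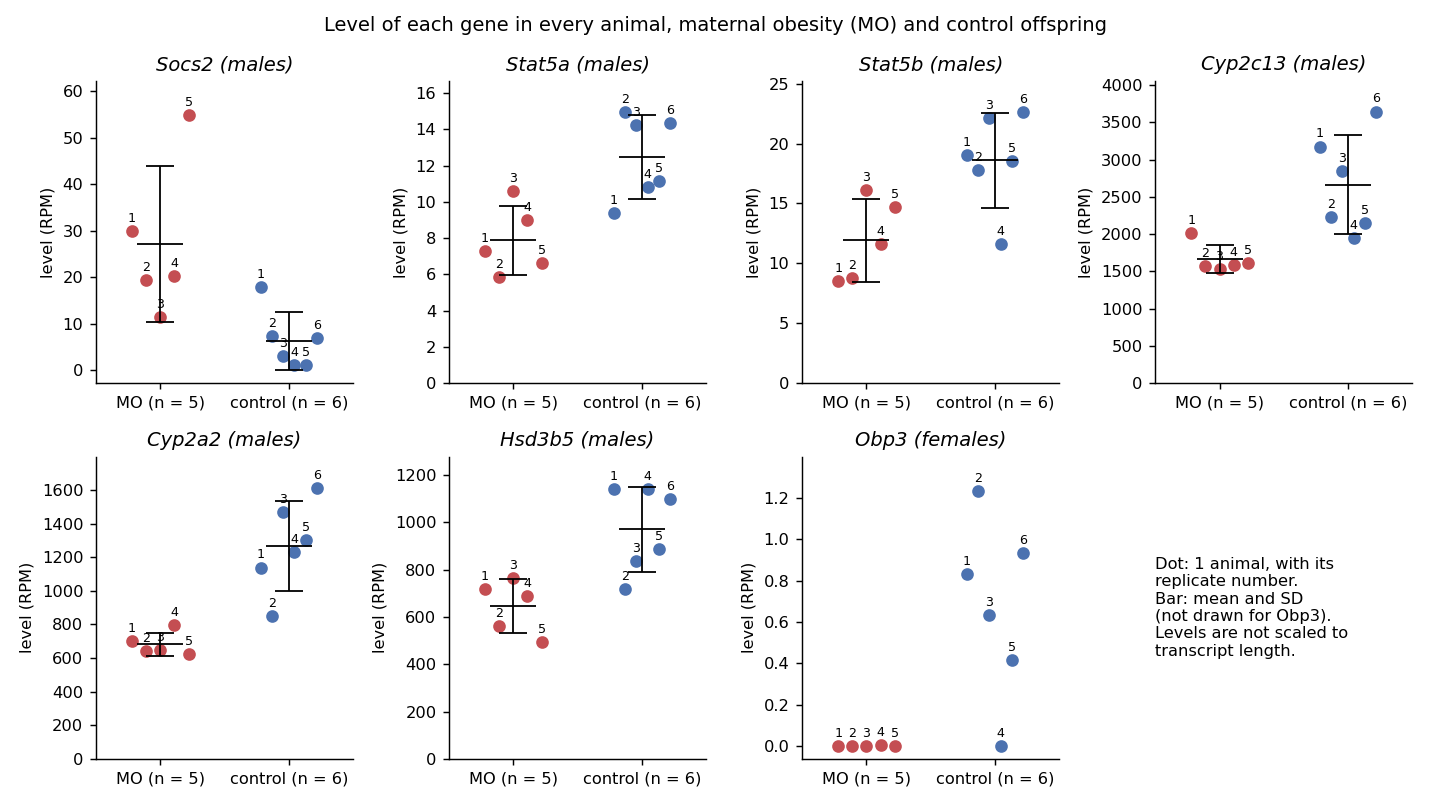
Level in RPM (vertical axes) of each of the 7 genes in every animal, MO offspring left in red and control offspring right in blue, with replicate numbers beside the points and the mean and SD as bars, which are not drawn for Obp3. Socs2 is higher in MO males with 1 control inside the MO range, the 5 other male genes are lower, and Cyp2a2 alone has no overlap.

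The signal carriers Stat5a and Stat5b were both listed lower in MO males, each at about the median of the table. Stat5a was at 7.28, 5.88, 10.6, 8.98 and 6.61 RPM in MO males 1 to 5, against a lowest of 9.41, a median of 12.7 and a highest of 14.98 RPM in control males. All MO males but MO 3 were below every control. Stat5b was at 8.49, 8.74, 16.1, 11.6 and 14.7 RPM in MO males, against a lowest of 11.6, a median of 18.8 and a highest of 22.6 RPM in control males. Here 3 of 5 MO males were below every control, and control 4 was the lowest control, inside the MO range, while the next control was at 17.8 RPM. Stat5a averaged 7.87 ± 1.91 RPM in MO males (SD, n = 5) and 12.5 ± 2.31 RPM in control males (SD, n = 6), a log2 difference of -0.61 ± 0.18 (SE). Stat5b averaged 11.9 ± 3.45 RPM in MO males (SD, n = 5) and 18.6 ± 3.97 RPM in control males (SD, n = 6), a log2 difference of -0.61 ± 0.20 (SE). After centring, both were at -0.03, with an SE of 0.15 for Stat5a and 0.18 for Stat5b. Against controls 1 and 5 alone the difference was -0.37 for Stat5a and -0.66 for Stat5b. By size Stat5a ranked 537 and Stat5b 531 among the 1317 lower rows.

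Stat5a and Stat5b are close paralogs, and their values show that the processing shared reads between them. Converted to reads, the Socs2 values were whole numbers within 0.1 of a read in 11 of 11 males, whereas those of Stat5a and Stat5b were whole in 3 of 11 each. In MO male 1 Stat5a had 80.8 and Stat5b 94.2 reads, which sum to 175. In control 1 they had 94.2 and 190.8 reads, which sum to 285. The sum was a whole number within 0.1 of a read in 11 of 11 males. Of the 158 other male rows with low counts that were whole in 5 or fewer of 11 animals, Stat5b was the only 1 whose sum with Stat5a was whole in every animal. The summed count does not depend on how shared reads were split, while the separate levels do and are uncertain to that extent. The sum was 175, 154, 303, 218 and 247 reads in MO males 1 to 5, and 285, 285, 326, 177, 332 and 348 reads in controls 1 to 6. In RPM it averaged 19.8 ± 4.85 RPM in MO males (SD, n = 5) and 31.1 ± 5.46 RPM in control males (SD, n = 6), and 4 of 5 MO males were below every control. Its log2 difference was -0.64 ± 0.18 (SE), and -0.05 ± 0.16 (SE) after centring. The share of the sum assigned to Stat5a was 31.0% to 46.2% in MO males and 33.0% to 48.2% in control males, so the ranges overlapped almost fully.

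The 3 male-predominant enzymes were listed lower in MO males, with differences between -0.87 and -0.58. Cyp2c13 encodes a cytochrome P450 of steroid hydroxylation found in adult male rat liver. Its level was 2009, 1577, 1538, 1590 and 1618 RPM in MO males 1 to 5, against a lowest of 1952, a median of 2535 and a highest of 3644 RPM in control males. MO 1 lay inside the control range and the 4 other MO males lay close together below it. The means were 1666 ± 194 RPM in MO males (SD, n = 5) and 2665 ± 666 RPM in control males (SD, n = 6), a log2 difference of -0.65 ± 0.19 (SE) that became -0.06 ± 0.13 (SE) after centring.

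Cyp2a2, another male-predominant steroid hydroxylase, was at 699, 640, 646, 795 and 626 RPM in MO males 1 to 5, against a lowest of 849, a median of 1267 and a highest of 1614 RPM in control males. It was the only 1 of the 5 lower male genes in which the groups did not overlap, and the same held for 29.9% of all male rows. It averaged 681 ± 69.3 RPM in MO males (SD, n = 5) and 1267 ± 267 RPM in control males (SD, n = 6), a log2 difference of -0.87 ± 0.18 (SE) that ranked 128 by size among the lower rows. After centring it kept a difference of -0.29 ± 0.12 (SE), the only one of the 5 lower male genes farther from 0 than its SE. The coefficient of variation was 10.2% in MO males and 21.0% in control males. Cyp2a2 has a close relative in Cyp2a1. Some of its values were fractions of a read, such as 7391.8 reads in control 2 and 7322.2 in MO 3. The separate level of Cyp2a2 may thus also depend on how reads were assigned, which was not tested.

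Hsd3b5 encodes a male-predominant 3-ketosteroid reductase of rat liver. It was at 717, 562, 765, 689 and 493 RPM in MO males 1 to 5, against a lowest of 719, a median of 992 and a highest of 1140 RPM in control males. Only MO 3 reached the control range, and it passed control 2 alone. The means were 645 ± 113 RPM in MO males (SD, n = 5) and 970 ± 180 RPM in control males (SD, n = 6), a log2 difference of -0.58 ± 0.18 (SE) that was 0.00 ± 0.14 (SE) after centring. The 5 lower male genes together had a median difference of -0.61, beside -0.58 for the whole male table.

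**Figure D2:**
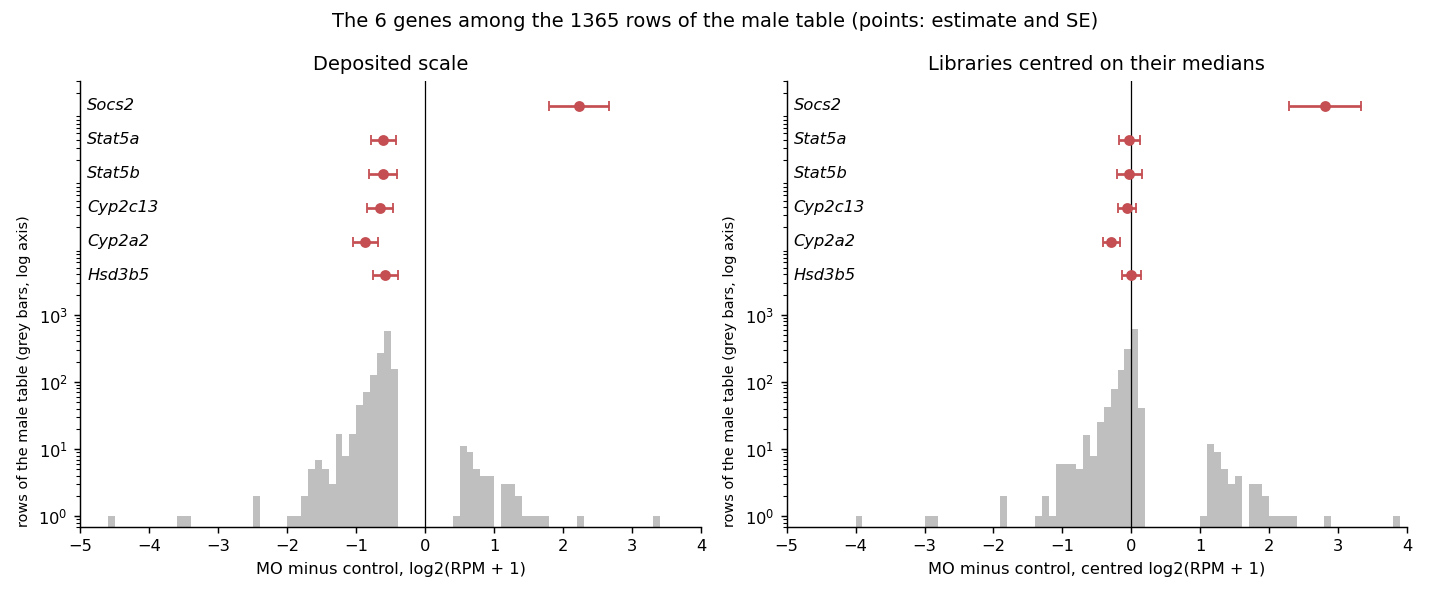
Distribution of MO minus control differences over the 1365 male rows (grey bars, number of rows on a log axis) with the 6 male genes as points with SE bars, on the deposited scale at left and with libraries centred on their medians at right. Socs2 lies at 2.23 and 2.81, far from the bulk, while Stat5a, Stat5b, Cyp2c13 and Hsd3b5 lie within the bulk at left and between -0.06 and 0.00 at right.

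Obp3, an alpha-2u globulin, was the only gene of the set in the female table, and it was close to the limit of detection. It was listed at 0, 1e-05, 0, 0.00687 and 0.0007 RPM in MO females 1 to 5, all of them under 1 read, since 1 read was worth 0.085 to 0.109 RPM. In control females 1 to 6 it was listed at 0.832, 1.23, 0.634, 0.0028, 0.418 and 0.936 RPM, which came to 7.63, 13.9, 6.98, 0.033, 4.89 and 9.17 reads. Control 4 was as low as the MO females and lay below MO 4, and the 5 other controls were above every MO female. Every MO female lay below every control in 4.35% of female rows, and 81.2% of female rows passed the limma threshold. Both shares come from rows selected for a difference, and nothing is read from them for Obp3. The difference was -0.70 ± 0.18 on the log2(RPM + 1) scale (SE), and no ratio is given because the MO values were at or near 0. With 0.1 added in place of 1 it was -2.58, so its size rests on the constant added. Several values were fractions of a read, such as 7.63 reads in control 1 and 0.033 reads in control 4. The separate level of Obp3, also where it is near 0, may therefore depend on how reads were assigned. The alpha-2u globulins are a multigene family with near-identical members, and which member these few reads came from was not tested. Obp3 in male livers was not analysed here.

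The other genes of the pathway came from 5 lists with 77 genes, chosen with earlier results of these data known. Of 27 genes between the receptor and STAT5, 7 were in the male table, of which 2 were higher and 5 lower with a median of -0.61, and 0 were in the female table. Over all male rows 48 were higher and 1317 lower, with a median of -0.58. The higher ones were Socs2 and Irs2, an adaptor of insulin and growth hormone signalling. Irs2 was at 34.9, 19.7, 19.0, 32.9 and 31.9 RPM in MO males 1 to 5, against a lowest of 9.99, a median of 18.5 and a highest of 26.6 RPM in control males. Its difference was 0.65 ± 0.23 (SE), with 3 of 5 MO males above every control. The lower ones besides Stat5a and Stat5b were the kinase Tyk2 (-0.52 ± 0.19, SE), the adaptor Shc1 (-0.61 ± 0.20, SE) and the STAT inhibitor Pias3 (-0.65 ± 0.19, SE). Shc1 came to whole reads in only 2 of 11 males, so its level may also depend on how reads were assigned, which was not tested. Tyk2 was the one with no overlap, at 32.2 to 43.4 RPM in MO males and 43.9 to 87.9 RPM in control males. Every MO male lay below every control in 29.9% of all male rows. After centring Tyk2 was at 0.07 ± 0.09, Shc1 at -0.02 ± 0.14, Pias3 at -0.06 ± 0.11 and Irs2 at 1.23 ± 0.19 (SE).

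Of the 14 male-predominant genes, 6 were in the male table and all 6 were lower, with a median of -0.65, beside -0.58 for the whole male table. Besides the 3 enzymes above these were a cytochrome P450 titled Cyp3a2 in the table (-0.91 ± 0.26, SE), the transporter gene Ust5r (-0.65 ± 0.21, SE) and the dehydrogenase gene Dhrs7 (-0.62 ± 0.21, SE). After centring they were at -0.33 ± 0.24, -0.07 ± 0.14 and -0.03 ± 0.13 (SE), in that order. The transcript titled Cyp3a2 is now named Cyp3a23-3a1 in RefSeq, a different gene of the family, and without it 5 listed genes were left, all 5 lower, with a median of -0.65. Of the 11 female-predominant genes, 1 was in the male table, and it was lower too. This was Cyp2a1, at 214 ± 51.0 RPM in MO males (SD, n = 5) and 374 ± 77.5 RPM in control males (SD, n = 6), a difference of -0.82 ± 0.20 (SE) and of -0.23 after centring. The male-predominant listed genes and the 1 female-predominant gene thus lay on the same side, in a table with 1317 of 1365 rows on that side. Cyp2a1 is the close relative of Cyp2a2 named above. In control 2 Cyp2a1 had 2253.2 reads and Ust5r 818.3, which are fractions too. The separate levels of both may also depend on how reads were assigned, which was not tested.

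Among the female rows 2 of 14 male-predominant genes were present by title: Obp3, and a fatty acid hydroxylase titled Cyp4a2, which did not pass (-1.12 ± 0.55, SE; limma adjusted p = 0.061). RefSeq now names that transcript Cyp4a3, a different gene of the family, and without it Obp3 was the only one. Of 12 genes of the insulin-like growth factor axis, 0 were in the male table and 2 in the female one. These were Igfbp1 (-1.93 ± 0.60, SE) and Igfbp2 (-1.41 ± 0.54, SE), which encode binding proteins of the growth factors. Igfbp1 was at 31.6, 51.0, 217, 49.3 and 133 RPM in MO females 1 to 5, against a lowest of 139, a median of 296 and a highest of 590 RPM in control females. The groups overlapped through MO 3 alone. Of 13 liver factors that act with STAT5, 0 were in either table, and the listed genes outside the tables were not analysed here.

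**Figure D3:**
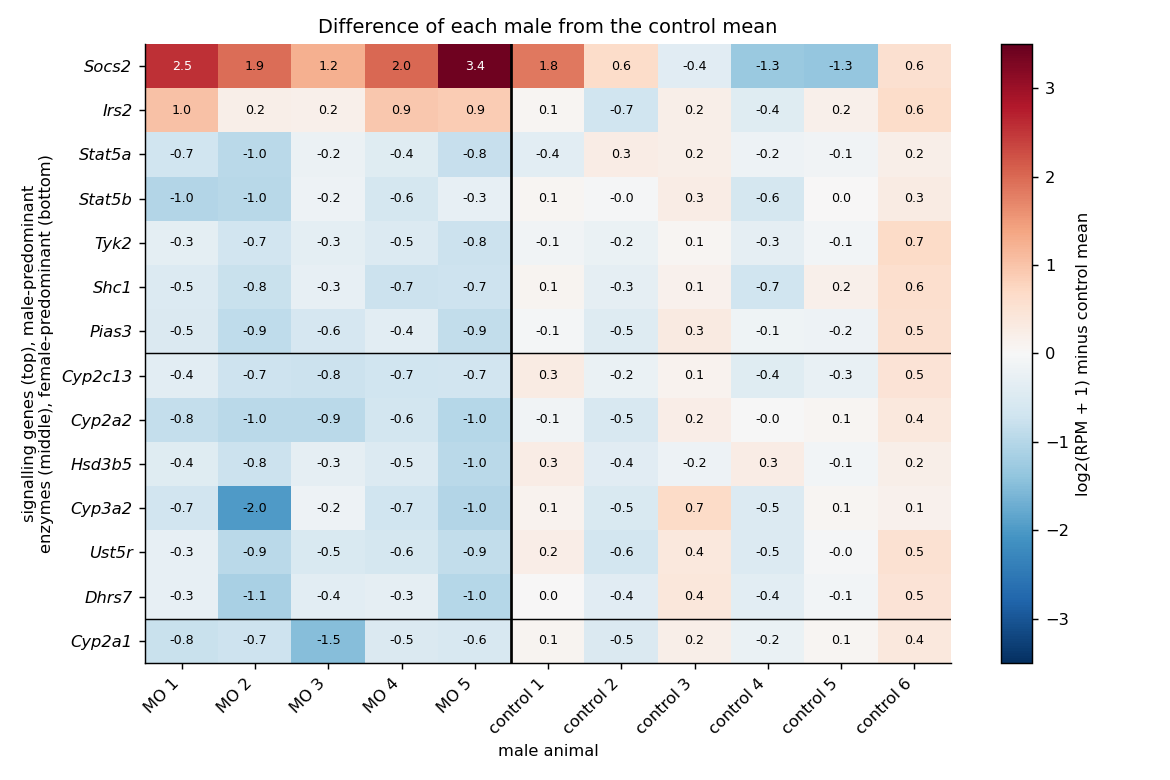
Difference of each male from the control mean in log2(RPM + 1), with MO males 1 to 5 left of control males 1 to 6 and genes in lines: signalling genes at the top, genes listed by title as male-predominant in the middle and female-predominant Cyp2a1 at the bottom. Socs2 and Irs2 are positive in all 5 MO males, the 12 other genes are negative in all 5, and control 1 has a high Socs2 value.

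The labelled tissue could not be checked against hepatocyte markers, since 0 of 7 were in either table. Of 19 markers of other liver cells, 4 were in the male table, the bile duct markers Krt19 and Epcam and the stellate cell markers Pdgfrb and Des, with differences between -0.70 and -0.60. The median over all male rows was -0.58, and every MO male lay below every control in 29.9% of male rows. The summed level of the 4 markers was 20.0 to 29.7 RPM in MO males and 33.7 to 44.4 RPM in control males. Nothing particular to these markers is read from that, and their part in the results was not tested. In whole liver, fewer cells of a type and less RNA per cell cannot be told apart.

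Animals of 1 group also differ among themselves. The listed rows had deposited p-values under 0.05, which depend on the spread within groups, so rows with a small spread were favoured, but how genes moved with each other was not part of that choice. All 15 pairs of the 6 male genes were correlated over 11 males after each animal's own group mean had been subtracted on the log2 scale, with a two-sided permutation test that shuffled animals within groups (100000 resamples). On the deposited scale 0 of 15 pairs passed after Benjamini-Hochberg adjustment, and 0 had an unadjusted p under 0.05. Socs2 and Cyp2c13 had the smallest p, with Pearson's r = 0.62 (permutation p = 0.0953, adjusted 0.84) and Spearman's rho = 0.65 (permutation p = 0.0903). Without the 2 animals farthest from the median of Socs2, control 1 and MO 5, r was 0.66. Among the 6 controls alone r was 0.68 (exact permutation p = 0.147). The sign of r was positive within groups, whereas between the groups Socs2 was higher and Cyp2c13 lower in MO males.

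All genes of 1 library share its overall shift, so the same pairs were taken after centring. There too 0 of 15 pairs passed, and Socs2 with Cyp2c13 came closest. It had r = 0.80 (permutation p = 0.00373, adjusted 0.0559) and rho = 0.75 (permutation p = 0.007, adjusted 0.105), and r = 0.64 without the same 2 animals. With the other enzymes Socs2 had the opposite sign, r = -0.50 for Cyp2a2 (permutation p = 0.178) and r = -0.24 for Hsd3b5 (permutation p = 0.544). Stat5a with Cyp2c13 had r = -0.62 (permutation p = 0.0512) and rho = -0.72 (permutation p = 0.0175, adjusted 0.131). Stat5a and Stat5b, which share reads, had r = 0.52 on the deposited scale (permutation p = 0.136), rho = 0.28 (permutation p = 0.436) and r = 0.42 without MO 3 and control 2.

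**Figure D4:**
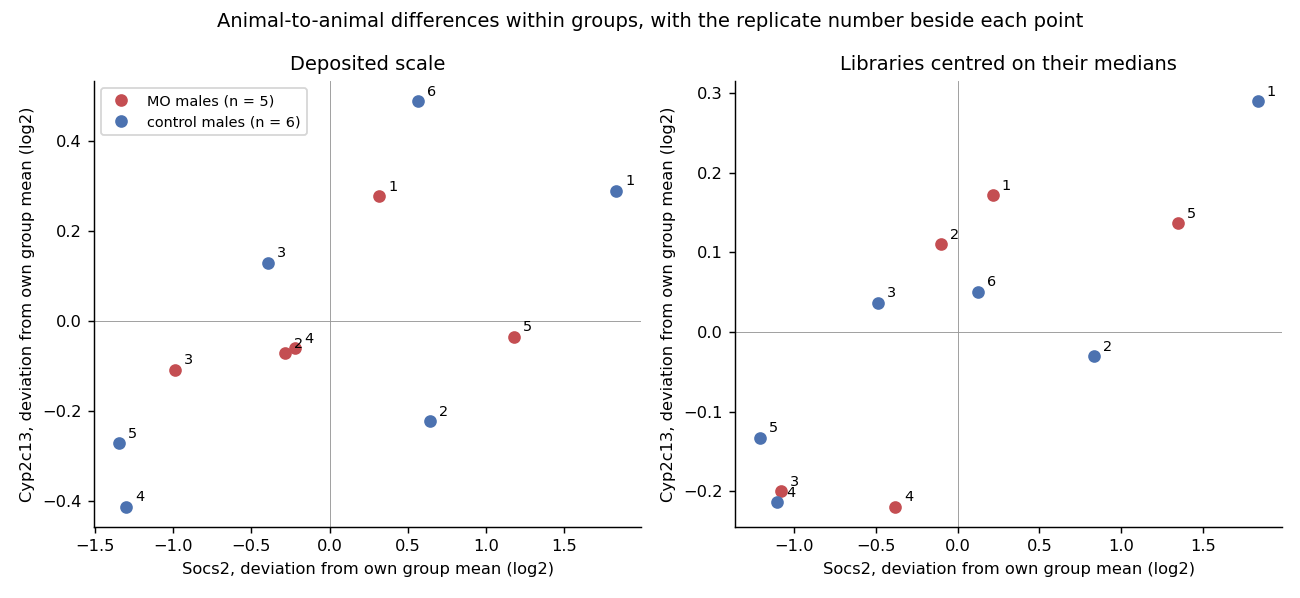
Cyp2c13 (vertical) against Socs2 (horizontal), each as the deviation of an animal from its own group mean in log2(RPM + 1), for 5 MO males in red and 6 control males in blue with replicate numbers, on the deposited scale at left (r = 0.62) and centred at right (r = 0.80). Controls 4 and 5 and MO 3 are low in both genes and control 1 is high in both.

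The listed genes whose within-group pattern was most like that of a member were found by the same deviations over 11 animals, as a description without a test. For Socs2 they were Slc25a1 (r = 0.89), Vgll4 (r = 0.88) and Pxylp1 (r = 0.83), against a median of 0.08 over the 1364 other male rows, and their r was 0.86 to 0.89 after centring. Between the diets Slc25a1 (-0.51) and Pxylp1 (-0.58) were lower in MO males, unlike Socs2, and Vgll4 (0.68) was higher. For Cyp2c13 they were Hn1l (Jpt2 by its current name, r = 0.96), Lcmt1 (r = 0.95) and S100a16 (r = 0.91), against a median of 0.51, and their r after centring was 0.89, 0.66 and 0.71 in that order. For Obp3 they were Tmem14a (r = 0.78), Zfp39 (r = 0.69) and RGD1359290 (r = 0.67), against a median of 0.28 over 68 female rows, and after centring they were at 0.39, 0.29 and 0.51. Since Obp3 was at or near 0 in every MO female, its deposited-scale r rests almost wholly on the 6 control females and their few reads. All these genes were picked as the highest of their table, so the medians beside them are no test.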

How the data were processed

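Liver RNA of 22 rats was sequenced from Illumina TruSeq libraries, per the labels' protocols. Tools named in the submitters' processing notes are Partek and STAR 2.3.1j, with rn5 as the build. Not given in the sources used here were how features were annotated and counted.

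The values deposited by the authors are RPM with 1 added, inferred from the values since the headers name no unit. The deposited fold is the size of a log2 difference, recovered from the values in 1365 of 1365 male and 67 of 69 female rows, and so were the p-values that the authors deposited. Low values (under 9 RPM) were whole multiples of 1 step within 0.02 of a read for 81.4% to 86.6% of male and 54.9% to 61.1% of female values. The step gave depth and reads. It did not give whole reads for nearly all genes, so no count model was run, and limma 3.58.1 (limma-trend, R 4.3.3), which the design named for normalised values, was fitted per sex on log2(RPM + 1) without a filter. P-values were adjusted by Benjamini-Hochberg over each table, at 0.05. The fit was tested on simulated data.

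The members and lists were chosen with earlier results of these data known. Genes named are the 7 members, listed pathway genes, and the 3 genes most like Socs2, Cyp2c13 and Obp3. Alternatives were centred libraries, a pseudocount of 0.1, a filter at 1 RPM, exact permutation, a replicate block, controls 1 and 5 alone and leaving out each animal. Summing Stat5a and Stat5b was chosen after seeing the data. RefSeq (GRCr8) gave current names and promoters, and chromosomal positions of rn5 were not used.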

Additional observations from a re-analysis of the deposited data

Results flagged for a closer look

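Among 14 groups of values of the 7 genes, 3 had an animal set apart from the others by a gap large for the range of its group. Chance is taken to set apart about 1 in 20 groups, a rate that was not checked for these values. Cyp2c13 in MO male 1 was the highest of 5 at 2009 RPM, while the 4 other MO males lay between 1538 and 1618 RPM. Obp3 in MO female 4 was the highest of 5 at 0.00687 RPM, which is under 1 read. Stat5b in control male 4 was the lowest of 6 at 11.6 RPM, and the same animal had the lowest sum of Stat5a and Stat5b among the controls, 177 reads.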

How the results depend on the processing

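Under the other settings listed for the processing and in the sum of Stat5a and Stat5b, the differences of the 7 genes kept their sign except that of Hsd3b5, which was 0.00044 with centred libraries. Centring moved the 4 other lower male genes, to -0.03 (Stat5a and Stat5b), -0.06 (Cyp2c13) and -0.29 (Cyp2a2), and a pseudocount of 0.1 moved Obp3 to -2.58. Obp3 has no value with the filter at 1 RPM, which leaves it out. Of the male rows all passed limma. The count was 72 with centred libraries, of which 48 were higher and 24 lower. It was 531 with controls 1 and 5 alone, a comparison with fewer animals. The median difference there was -0.53, against -0.58 with all controls. With those controls alone Stat5a was at -0.37, against -0.61 with all controls, and the 4 other lower male genes were between -0.84 and -0.66. The count of passing female rows was 56. It was 4 by the exact permutation test, where 62 rows had an unadjusted p under 0.05, and 34 to 53 without 1 animal, the lowest without MO 2 (37 without MO 5). With centred libraries 21 female rows were higher and 24 lower, against 35 higher and 21 lower as deposited. Obp3 had an adjusted p of 0.055 in the exact permutation test. Its row was selected for this difference, so nothing is read from that value.

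The replicate numbers did not pair the animals: same-numbered males correlated between -0.10 and 0.15 and females between -0.42 and 0.33. With a replicate block 1343 male and 26 female rows passed, and Socs2 was at 2.34.

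The correlation of Cyp2c13 with Cyp2a2 was -0.22 with centred libraries, against 0.46 as deposited. That of Cyp2a2 with Hsd3b5 was -0.08 without the 2 animals farthest from the median, against 0.45 with them. The causes of these changes were not tested. Depth limits Obp3 most, with at most 13.9 reads in any female.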
